A study of Mus musculus with 12 samples.

Results

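The Cyp3a genes encode the mouse CYP3A cytochromes P450, and their acetylation in liver was described here gene by gene. The 9 protein-coding genes with a Cyp3a symbol that were examined (Cyp3a11, Cyp3a13, Cyp3a16, Cyp3a25, Cyp3a41a, Cyp3a41b, Cyp3a44, Cyp3a57 and Cyp3a59) were chosen by name out of 21911 protein-coding gene symbols of the GENCODE annotation of mm10. A peak was assigned to a gene when it overlapped, by at least 1 bp, the gene body or the 5 kb on either side of the gene start, and this stretch is called the window of the gene. A total of 69 peaks of the 6 lists fell in the 9 windows.

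Histone H3 acetylated at lysine 9 (H3K9ac) was mapped by chromatin immunoprecipitation and sequencing in adult mouse livers, and 1 peak list was available for each library. The libraries came from 2 C57BL/6J mice (B6, the strain of the reference genome), 2 MSM/Ms mice (MSM, an inbred strain of Japanese wild origin), 1 F1 mouse born to a B6 dam crossed with an MSM sire (F1 BM) and 1 F1 mouse of the reciprocal cross, from an MSM dam (F1 MB). Each F1 mouse carried 1 allele of either strain, and the lists do not separate the alleles. The labels give no sex for any mouse. Values of the 6 libraries are given below in the order B6 replicate 1, B6 replicate 2, MSM replicate 1, MSM replicate 2, F1 BM and F1 MB unless stated otherwise.

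CYP3A enzymes sit in the membrane of the endoplasmic reticulum of hepatocytes and enterocytes, where they oxidise steroids, bile acids and a large part of the drugs and plant toxins that reach the liver. They receive electrons from cytochrome P450 reductase, and their genes are classical targets of the nuclear receptors PXR (Nr1i2) and CAR (Nr1i3), which pair with RXR and bind repeats of a short word. In the mouse, Cyp3a11, Cyp3a13 and Cyp3a25 are known as genes of the adult liver, Cyp3a16 as a gene of the perinatal liver, and Cyp3a41a, Cyp3a41b and Cyp3a44 as genes used mainly in the female liver. H3K9ac is laid down by acetyltransferases around the starts of transcribed genes and at active enhancers.

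All 9 genes lay on chromosome 5. Cyp3a13 (ENSMUSG00000029727.7, 137892932 to 137921619, minus strand) stood alone. The other 8 formed 1 cluster of 773 kb: Cyp3a57 (ENSMUSG00000070419.11, 145345279 to 145390926, plus strand), Cyp3a16 (ENSMUSG00000038656.5, 145436309 to 145469723, minus), Cyp3a41b (ENSMUSG00000075552.4, 145558664 to 145584730, minus), Cyp3a41a (ENSMUSG00000075551.4, 145694049 to 145720136, minus), Cyp3a44 (ENSMUSG00000054417.5, 145773983 to 145805874, minus), Cyp3a11 (ENSMUSG00000056035.8, 145854426 to 145879964, minus), Cyp3a25 (ENSMUSG00000029630.15, 145977194 to 146009618, minus) and Cyp3a59 (ENSMUSG00000061292.10, 146079257 to 146113287, plus).

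The bases just upstream of the starts are shown for 6 of the genes, because they show which genes are near copies of each other and which carry the words such receptors bind. Promoter sequences came from RefSeq (GRCm38.p6), matched by symbol for 9 of 9 genes. Each sequence is read 5′ to 3′ in the direction of transcription and ends at the base before the annotated start, and capitals mark every match, on either strand, to the words AGGTCA and AGTTCA (single words bound by nuclear receptors), CAAAGTCCA (an HNF4 site) and TATAAA. The sequence of Cyp3a11 ends before the GENCODE start, which lies 110 bp upstream of that of RefSeq, so its HNF4 word, at −109 to −101 from the RefSeq start, is not in the stretch shown.

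Cyp3a11, chr5:145879965-145880104, minus strand: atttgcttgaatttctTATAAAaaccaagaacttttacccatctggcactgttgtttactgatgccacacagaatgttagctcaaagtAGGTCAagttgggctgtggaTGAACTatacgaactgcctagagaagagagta

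Cyp3a16, chr5:145469724-145469903, minus strand: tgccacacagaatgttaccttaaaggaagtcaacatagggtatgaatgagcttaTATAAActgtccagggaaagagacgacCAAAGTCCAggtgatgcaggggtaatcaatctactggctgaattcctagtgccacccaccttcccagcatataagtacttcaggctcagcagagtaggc

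Cyp3a44, chr5:145805875-145806054, minus strand: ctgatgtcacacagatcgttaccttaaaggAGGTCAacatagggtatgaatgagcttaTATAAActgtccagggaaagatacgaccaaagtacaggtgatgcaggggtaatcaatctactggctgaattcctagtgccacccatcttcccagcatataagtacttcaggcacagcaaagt

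Cyp3a41a, chr5:145720137-145720316, minus strand: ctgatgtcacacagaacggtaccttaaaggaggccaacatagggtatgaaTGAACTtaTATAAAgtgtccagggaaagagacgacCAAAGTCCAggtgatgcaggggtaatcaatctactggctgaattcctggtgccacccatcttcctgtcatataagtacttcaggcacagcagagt

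Cyp3a25, chr5:146009619-146009798, minus strand: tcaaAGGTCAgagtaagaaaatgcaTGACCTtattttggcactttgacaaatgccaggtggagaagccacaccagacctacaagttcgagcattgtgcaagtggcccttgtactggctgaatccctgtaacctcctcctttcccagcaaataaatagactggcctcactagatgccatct

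Cyp3a13, chr5:137921620-137921799, minus strand: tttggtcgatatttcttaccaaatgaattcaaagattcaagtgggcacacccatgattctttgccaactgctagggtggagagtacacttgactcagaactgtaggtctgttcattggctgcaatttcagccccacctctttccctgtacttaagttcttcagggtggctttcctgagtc

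Over the 250 bases before the start, the promoters fell into groups of like sequence. Cyp3a41a and Cyp3a41b were identical at 99.6% of aligned columns, and each was 94.4% to 94.8% identical to Cyp3a44 and 90.9% to 91.3% to Cyp3a16. Cyp3a25 and Cyp3a59 were 94.8% identical and Cyp3a57 and Cyp3a59 90.1%. Cyp3a11 was nearest to Cyp3a16 (76.2%), followed by Cyp3a41b (72.1%), Cyp3a41a and Cyp3a44 (71.7% each), while Cyp3a13 reached at most 56.2% with any other member.

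In the 250 bases before to 50 bases after the start, AGGTCA occurred in 5 of 9 genes (Cyp3a11, Cyp3a25, Cyp3a44, Cyp3a57 and Cyp3a59) and in 16.04% of all 27025 RefSeq promoters. AGTTCA occurred in 3 of 9 (Cyp3a11, Cyp3a41a and Cyp3a41b; 14.0% of all promoters), and CAAAGTCCA in 4 of 9 (Cyp3a11, Cyp3a16, Cyp3a41a and Cyp3a41b; 0.477% of all). TATAAA was found in 5 of 9 (14.2% of all). GTTAAT, a word bound by HNF1 (7.20% of all), and TTGCGCAA, a C/EBP palindrome (0.185% of all), were found in 0 of 9. Cyp3a13 held none of the 6 words. The genes are copies of one another, so these counts are not independent, and a match of letters is not a bound site.

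The lists differed in size, which bears on every count that follows. B6 replicate 1 held 22968 peaks over 16.02 Mb, B6 replicate 2 11619 over 6.28 Mb, and the MSM replicates 17310 and 17584 over 9.66 and 9.69 Mb. F1 BM held 20173 peaks over 12.3 Mb and F1 MB 13235 over 7.46 Mb. The MSM lists were thus alike, while B6 replicate 1 was the longest list and B6 replicate 2 the shortest. A missing peak cannot be told from a peak too weak for the list, and in whole liver fewer cells of a type and less of the mark per cell cannot be told apart. All 8 hepatocyte markers (Alb and Apoa1 among them) had a peak within 1 kb of the start in every library. The 4 Kupffer cell markers had none in any. Of all protein-coding genes, 23.6% had such a peak in all 6 libraries and 45.8% in at least 1.

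With 2 libraries against 2, the two-sided exact permutation test has 6 assignments of the parental libraries and cannot give a p below 0.333, so no strain difference can pass a threshold of 0.05 by this test. Differences were therefore set against the pooled within-strain SD, and the text says where the values of the strains did not overlap.

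Cyp3a11, Cyp3a16 and Cyp3a25 had a peak within 1 kb of the start in all 6 libraries, which makes 3 of 9 genes, against 23.6% of all protein-coding genes. A start peak in at least 1 library was found for 8 of 9 genes, against 45.8% of all. In the 4 parental libraries the same 3 genes had a start peak throughout (25.5% of all genes). For the whole window the counts were again 3 of 9 in all 6 libraries (28.5% of all genes) and 8 of 9 in at least 1 (52.8%). Cyp3a57 was the exception, with 0 peaks in its window in each of the 6 libraries. The number of Cyp3a genes with a start peak was 8, 4, 4, 4, 6 and 5 in the 6 libraries. Among all protein-coding genes the share was 44.2, 27.9, 35.5, 36.2, 35.3 and 31.7%. Both MSM libraries held start peaks of the same 4 genes (Cyp3a11, Cyp3a16, Cyp3a25 and Cyp3a44), whereas the B6 replicates held 8 and 4. The B6 mean of 6 ± 2.83 and the MSM mean of 4 ± 0 (SD, n = 2 each) differed by −2 (MSM minus B6) at exact permutation p = 1, no larger than the spread between the B6 mice. The direction turned, to a difference of 0.5, when each list was limited to the peak number of the shortest.

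**Figure D1:**
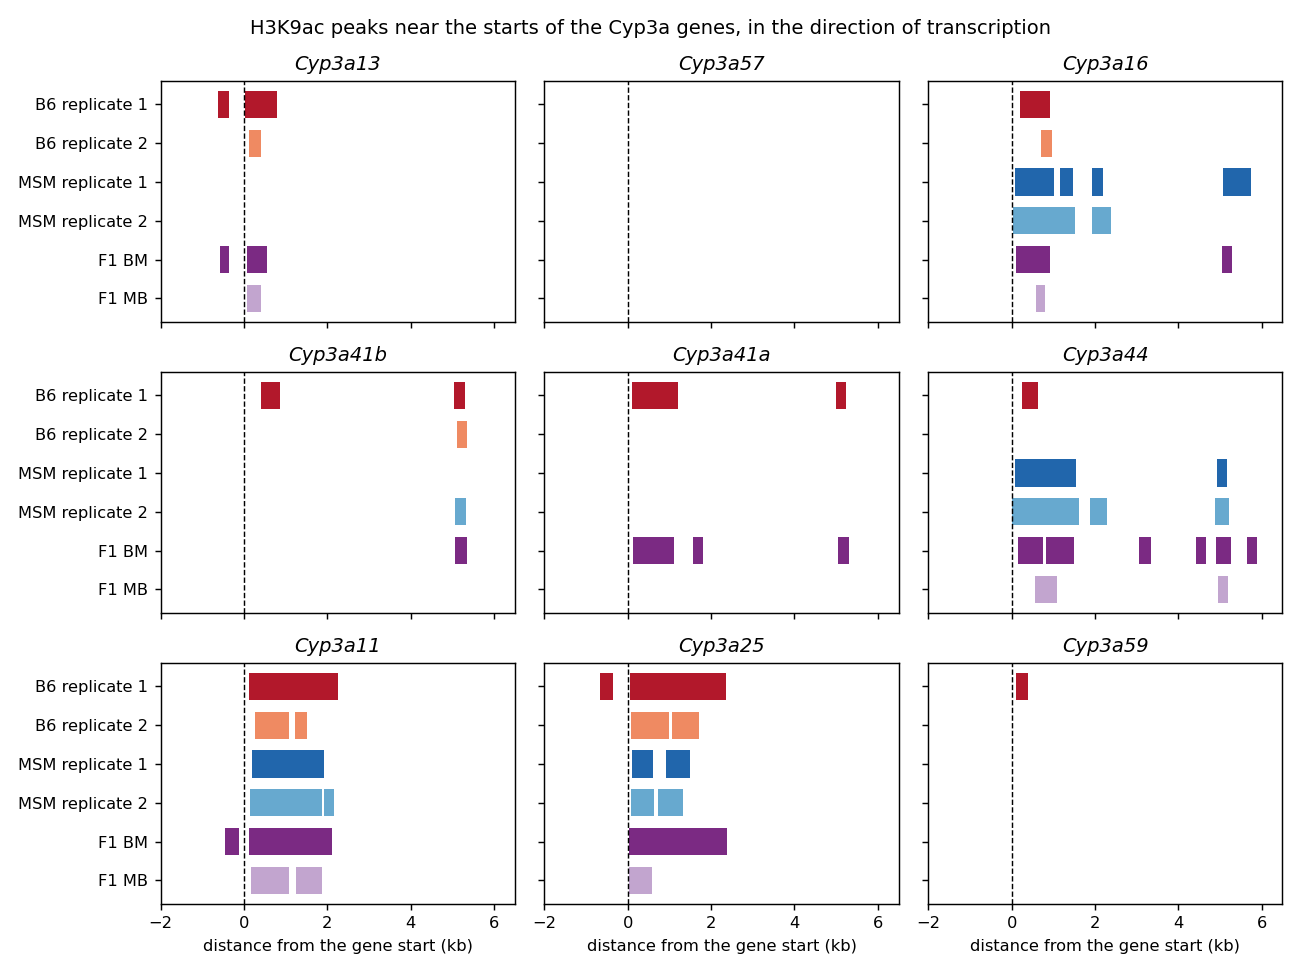
Each panel is 1 Cyp3a gene and each row 1 library. Bars are the peaks, drawn in kb from the gene start with transcription running to the right, and the dashed line is the start. All bars but 4 lie to the right of the start and 0 of them cross it, Cyp3a57 is empty in all rows, and Cyp3a13 is empty in the MSM rows. A further 7 peaks lie farther downstream than the 6.5 kb drawn.

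The peaks of the family lay downstream of the starts. Of the 69 peaks, 65 lay wholly downstream, 4 wholly upstream and 0 over the start. The window holds the whole gene body downstream but only 5 kb upstream, so a majority downstream is partly set by that rule. Within 1 kb of the start, 34 of 38 peaks were wholly downstream (89.5%), against 55.6% of the 66058 such peaks of all protein-coding genes. Peaks over the start made up 0% of the peaks of the family and 17.6% of those of all genes. The value of all genes ranged between libraries from 13.4% in F1 BM to 27.1% in B6 replicate 1. None of the further transcript starts that GENCODE annotates for these genes lay under a peak in any library either. Members share sequence and libraries, so the 38 peaks are not independent and no test was made of this share.

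Cyp3a11, the main drug-metabolising P450 of the family in mouse liver, was acetylated downstream of its start in every library. Its window was covered over 2116, 1096, 1747, 1957, 2316 and 1546 bp. The highest fold enrichment, how many times the authors' peak caller found the summit above its background, was 7.004, 5.94, 6.13, 7.63, 6.21 and 5.67. These folds ranked at the 70.5th to 92.7th percentile of the peaks of each list. The strains overlapped in both measures: covered length differed by 246 bp (MSM minus B6, within-strain SD 521 bp, exact permutation p = 1) and fold by 0.410 (SD 0.925, p = 0.667 by the same exact permutation test). With each list limited to the covered length of the shortest, the peak of B6 replicate 1 was lost, and the lengths of 0 and 1096 bp in B6 and 1747 and 1718 bp in MSM no longer overlapped (difference 1184.5 bp, exact permutation p = 0.333). Without B6 replicate 2 the full lists gave a difference of −264 bp. In B6 replicate 1 the domain ran unbroken from 145877719 to 145879834, over an untranslated region and the 5′ part of the gene, and in MSM replicate 1 from 145878037 to 145879783. In the other libraries it was split or flanked by a second peak, and F1 BM also had a peak upstream, from −450 to −123 bp of the start.

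Cyp3a25, another adult liver gene, had a longer domain in the B6 mice. Covered length was 2611, 1564, 1060, 1167, 2354 and 549 bp. Both B6 values were above both MSM values, with a difference of −974 bp (MSM minus B6) against a within-strain SD of 526 bp (p = 0.333 by exact permutation, the smallest possible). Without B6 replicate 1 the difference was −450.5 bp, and without B6 replicate 2 it was −1497.5 bp. The peak ran unbroken from 43 to 2347 bp downstream of the start in B6 replicate 1. B6 replicate 2 held 2 shorter peaks, from 67 to 978 and 1060 to 1711 bp, and so did both MSM libraries, from 110 to 594 and 927 to 1501 bp in replicate 1 and from 68 to 625 and 728 to 1336 bp in replicate 2. The F1 mice parted, since F1 BM had a single peak from 27 to 2380 bp and F1 MB one from 28 to 576 bp. The highest fold was 7.34, 6.04, 5.97, 5.45, 6.06 and 6.66, again higher in both B6 than in both MSM (difference −0.977, within-strain SD 0.701, exact permutation p = 0.333), by −0.326 without B6 replicate 1 and −1.63 without B6 replicate 2. The gap between B6 replicate 2 and MSM replicate 1 in fold was small, 6.04 against 5.97, and the covered lengths of the strains overlapped when only peaks with a −log10 q of at least 5 were kept.

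Cyp3a13 lies away from the cluster and was the gene whose peak was listed in both B6 mice and in neither MSM mouse. Covered length was 1016, 285, 0, 0, 695 and 340 bp. The difference was −650.5 bp (MSM minus B6, within-strain SD 366 bp, exact permutation p = 0.333). It was −285 bp when B6 replicate 1 was left out, and −1016 bp when B6 replicate 2 was. With each list limited to the covered length of the shortest, the Cyp3a13 peaks of B6 replicate 1 were lost. The strains then overlapped, with 0 and 285 bp in B6 and 0 bp in both MSM mice (difference −142.5 bp). In the full lists, a start peak in both B6 and neither MSM library was held by 1 of 9 Cyp3a genes and by 0.844% of all protein-coding genes. The opposite pattern was held by 0 of 9 and by 0.292%. For the whole window these were 1 of 9 (0.908% of all genes) and 0 of 9 (0.456%). The peaks lay over an untranslated region at the 5′ end: 137920824 to 137921593 in B6 replicate 1 (fold 5.13), 137921220 to 137921504 in B6 replicate 2 (fold 3.49), 137921070 to 137921536 in F1 BM (fold 3.87) and 137921205 to 137921544 in F1 MB (fold 4.27). Their −log10 q was 17.4, 4.28, 15.4 and 7.33, so the peak of B6 replicate 2 was the weakest of the 4 and was lost when only peaks with a −log10 q of at least 5 were kept. B6 replicate 1 and F1 BM also had an upstream peak, from −617 to −372 and from −588 to −361 bp of the start. Both F1 mice, with 1 B6 allele each, thus had a listed start peak.

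Cyp3a16, known from the liver around birth, was covered over 710, 254, 2179, 1932, 1315 and 228 bp. Both MSM libraries were above both B6 libraries, by 1573.5 bp on average against a within-strain SD of 259 bp (p = 0.333 by exact permutation). All 6 libraries had a peak in the first 1524 bp of the gene (145468199 to 145469685 when merged), and the MSM libraries alone had a further peak in the region from 145467338 to 145467795, over an exon. The highest fold was 3.03, 3.91, 8.22, 4.85, 5.47 and 3.21. It too was higher in both MSM than in both B6 mice (difference 3.07, within-strain SD 1.74, exact permutation p = 0.333), with a wide gap between the MSM mice: the difference was 1.38 without MSM replicate 1 and 4.76 without MSM replicate 2. In fold, F1 BM lay within the MSM values and F1 MB within the B6 values, and the part of list size in this was not tested.

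Cyp3a44, a gene of the female liver, showed the widest gap between the strains in covered length of the 9 genes. Covered length was 390, 0, 2367, 2852, 2980 and 762 bp, a difference of 2414.5 bp (MSM minus B6) against a within-strain SD of 311 bp (p = 0.333 by exact permutation). At the start, B6 replicate 1 had a peak of 390 bp (145805233 to 145805622), the MSM replicates peaks of 1464 and 1607 bp (145804326 to 145805789 and 145804249 to 145805855), and B6 replicate 2 had none. The highest fold was 3.81 in B6 replicate 1, 4.67 and 9.28 in the MSM replicates, 5.32 for F1 BM and 3.40 for F1 MB. In the introns, 2 regions were acetylated in both MSM and neither B6 library, 145793568 to 145794307 and 145800598 to 145800992. The first was also found in F1 BM and the second in both F1 mice.

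A covered length higher in both MSM than in both B6 mice was found for 2 of the 8 Cyp3a genes with a parental peak (Cyp3a16 and Cyp3a44), against 4.97% of the 11446 protein-coding genes with one. The opposite order was found for 2 of 8 (Cyp3a13 and Cyp3a25), against 11.6%. For the highest fold, which needs a peak in all 4 parental libraries, 1 of 3 genes was higher in MSM (Cyp3a16; 8.59% of 6706 genes) and 1 of 3 in B6 (Cyp3a25; 10.8%). The median difference in covered length was −247.5 bp over the 8 genes and −123.5 bp over the 11446. These counts are too small to set the family apart from other genes.

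**Figure D2:**
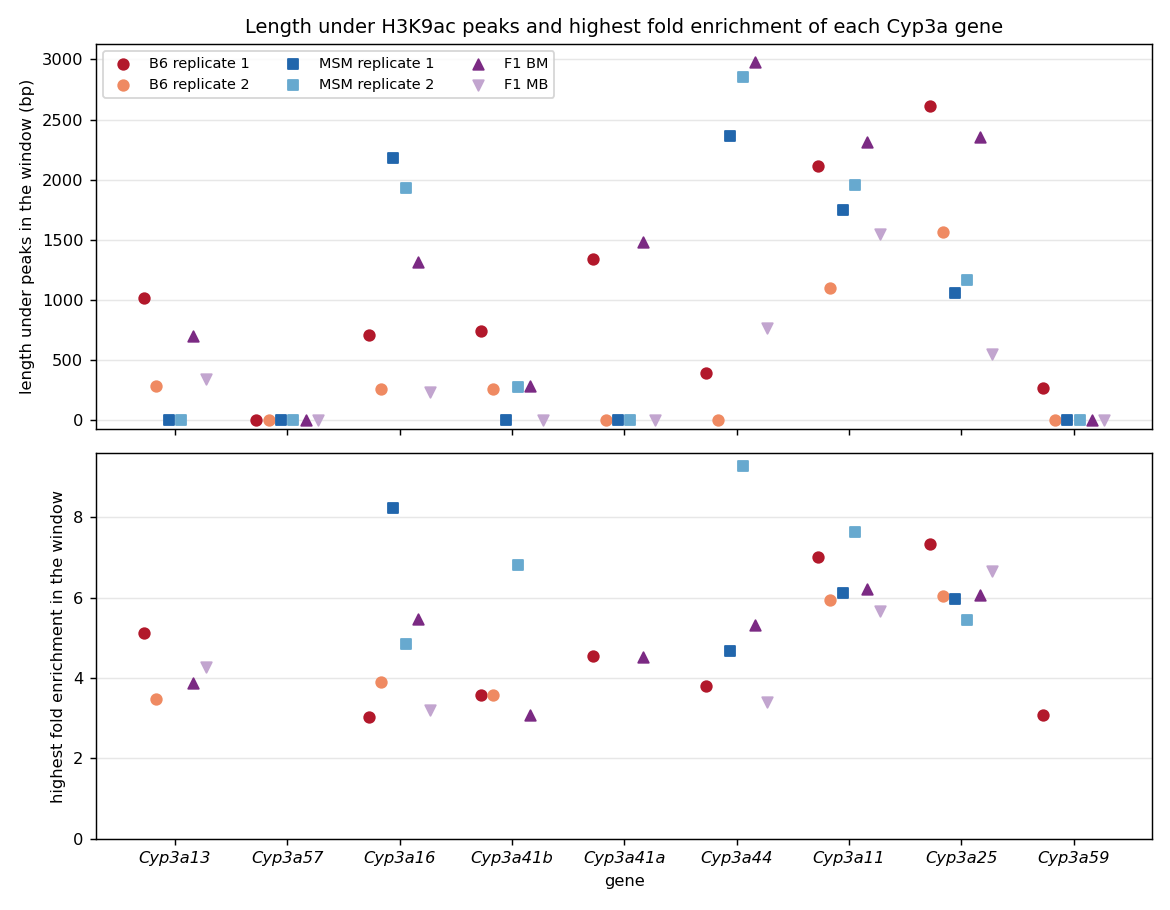
The upper panel gives the length under peaks in the window of each Cyp3a gene in bp, and the lower panel the highest fold enrichment in the window, with 1 point per library and no point where no peak was listed. In the upper panel the MSM points (squares) lie above the B6 points (circles) at Cyp3a16 and Cyp3a44 and below them at Cyp3a13 and Cyp3a25, and overlap them at Cyp3a11.

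Cyp3a41a and Cyp3a41b, the near-identical pair of the female liver, had few peaks. Cyp3a41a was covered over 1339, 0, 0, 0, 1484 and 0 bp, with a start peak in B6 replicate 1 (145718942 to 145720033, fold 4.56) and in F1 BM (145719020 to 145720007, fold 4.53) and none in the other 4. Cyp3a41b was covered over 737, 259, 0, 274, 285 and 0 bp, and its only start peak was in B6 replicate 1 (145583860 to 145584331, fold 3.58). Strain differences were −669.5 bp for Cyp3a41a (exact permutation p = 1) and −361 bp for Cyp3a41b (exact permutation p = 0.667), and the strains overlapped in both. Leaving out B6 replicate 1 brought them to 0 and −122 bp, and leaving out B6 replicate 2 to −1339 and −600 bp, while Cyp3a41b stood at −224 bp without MSM replicate 1. Cyp3a59, a gene whose role in liver is less known, had 1 peak in 1 library, 268 bp in B6 replicate 1 from 146079374 to 146079641, with a fold of 3.08 that ranked at the 6.84th percentile of its list.

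Reads of 50 bases cannot always be placed among near copies, so the share of 50-base words that occur once in the reference genome was counted over both strands. In the windows it was 96.7% for Cyp3a13, 95.9% for Cyp3a57, 91.1% for Cyp3a11, 85.8% for Cyp3a25, 85.2% for Cyp3a59, 78.1% for Cyp3a16 and 70.1% for Cyp3a44, but 20.2% for Cyp3a41a and 19.9% for Cyp3a41b. Cyp3a57, at 95.9%, had no peak in any list, and the part of read placement in that was not tested. Over the first 1 kb downstream of the start, where the peaks lay, the share was 100% for Cyp3a11, 99.9% for Cyp3a13, 94.6% for Cyp3a44, 92.6% for Cyp3a57, 87.0% for Cyp3a16, 83.2% for Cyp3a59, 79.3% for Cyp3a25, 22.7% for Cyp3a41b and 19.2% for Cyp3a41a. The part of repeated sequence in the low values of Cyp3a41a and Cyp3a41b was not tested, and pairs of reads can be placed where single words cannot. The words describe the B6 reference, and where MSM sequence differs, the placing of MSM reads was not tested.

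**Figure D3:**
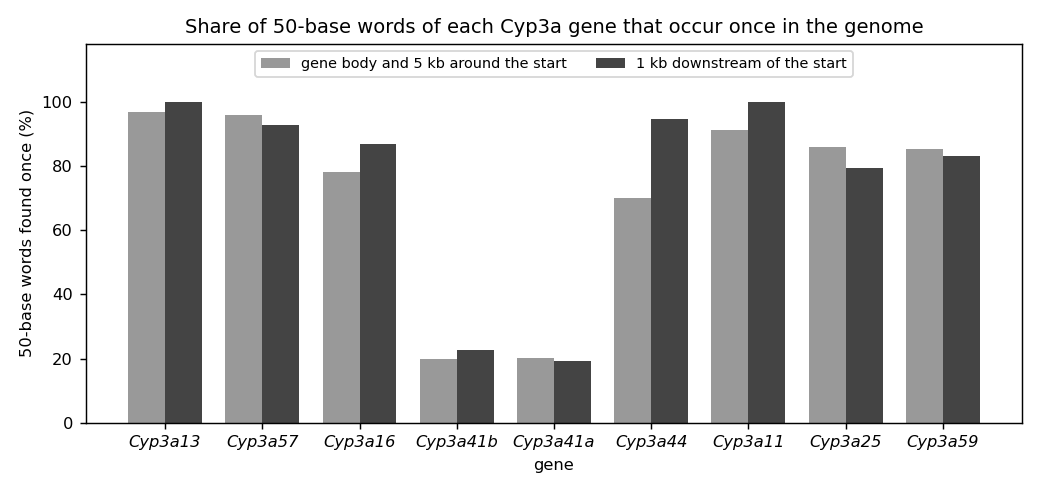
Bars give, for each Cyp3a gene in chromosome order, the percent of 50-base words that occur once in the reference genome, over the window (light) and over the 1 kb downstream of the start (dark). Cyp3a41b and Cyp3a41a stand between 19.2% and 22.7%, while the other 7 genes lie at 70.1% or more.

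In 4 of the genes an intronic region with peaks lay about 5 kb from the start. The regions were grouped by distance alone, and whether they share sequence was not tested. The middle of the region lay 5390 bp downstream of the start in Cyp3a16 (MSM replicate 1 and F1 BM). It lay at 5200 bp in Cyp3a41b (both B6, MSM replicate 2 and F1 BM). In Cyp3a41a it lay at 5152 bp (B6 replicate 1 and F1 BM) and in Cyp3a44 at 5079 bp (both MSM and both F1). In Cyp3a41b this region, and not the start, held the highest fold of MSM replicate 2, 6.82. Of the 50-base words of these regions, 97.1% were unique in Cyp3a16 and 93.1% in Cyp3a44, but 18.1% in Cyp3a41a and 0% in Cyp3a41b. Which copy the reads of Cyp3a41a and Cyp3a41b came from was not tested.

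The stretches of the cluster between the windows held 17 merged regions, against 24 merged regions in the windows of the 9 genes. In the windows, 3 were found in both MSM and neither B6 library and 1 in both B6 and neither MSM. Between the windows these numbers were 6 and 0. Of the 27334 merged regions of the whole genome, 3.08% had the first pattern and 3.06% the second. The 6 regions lie close together in 3 places and are not independent. The length under peaks between the windows was 1757, 225, 5263, 6973, 6813 and 1660 bp. This measure lies outside the windows of the genes and was not among the planned comparisons. Both MSM libraries were above both B6 libraries, 6118 ± 1209 against 991 ± 1083 bp (SD, n = 2 each), a difference of 5127 bp against a within-strain SD of 1148 bp (p = 0.333 by exact permutation). F1 BM was within the MSM values and F1 MB within the B6 values. The F1 lists differed in size (12.3 Mb in F1 BM, 7.46 Mb in F1 MB), and the F1 values were not recomputed with lists of equal size. Over the whole cluster the B6 mean was 6663 ± 4617 bp and the MSM mean 13885.5 ± 1795 bp (exact permutation p = 0.333). With each list limited to the covered length of the shortest, the difference between the windows fell to 2732 bp (MSM minus B6). Both MSM libraries stayed above both B6 libraries in that setting.

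A single region between the windows had a peak in all 6 libraries, as did 25.3% of the merged regions of the genome. It ran from 145635371 to 145637175, 1378 bp beyond the 5′ end of the annotated pseudogene Cyp3a63-ps (145624092 to 145633993), and its fold was 2.96, 3.49, 7.03, 11.9, 5.51 and 3.79. The MSM values were above the B6 values, and 84.9% of its words were unique. Between Cyp3a41a and Cyp3a44, 3 regions (145740227 to 145741508, 145741818 to 145742138 and 145742433 to 145743058) had peaks in both MSM mice and F1 BM and none in B6 or F1 MB. The last of them had a fold of 10.3 and 5.79 in the MSM replicates and 5.09 in F1 BM, with its middle at −22609 bp of the Cyp3a41a start (minus is upstream), and 55.3% of its words were unique. Upstream of Cyp3a41b, 145598692 to 145599596 and 145601370 to 145602466 were likewise found in both MSM and neither B6 library. Upstream of Cyp3a11, a region from 145912119 to 145912910, with its middle at −32550 bp of the start, was found in 5 libraries (fold 5.23 in B6 replicate 1, 3.97 and 2.92 in the MSM replicates, 2.93 in F1 BM, then 3.49 in F1 MB), and 100% of its words were unique. GENCODE names no gene over any of these regions.

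**Figure D4:**
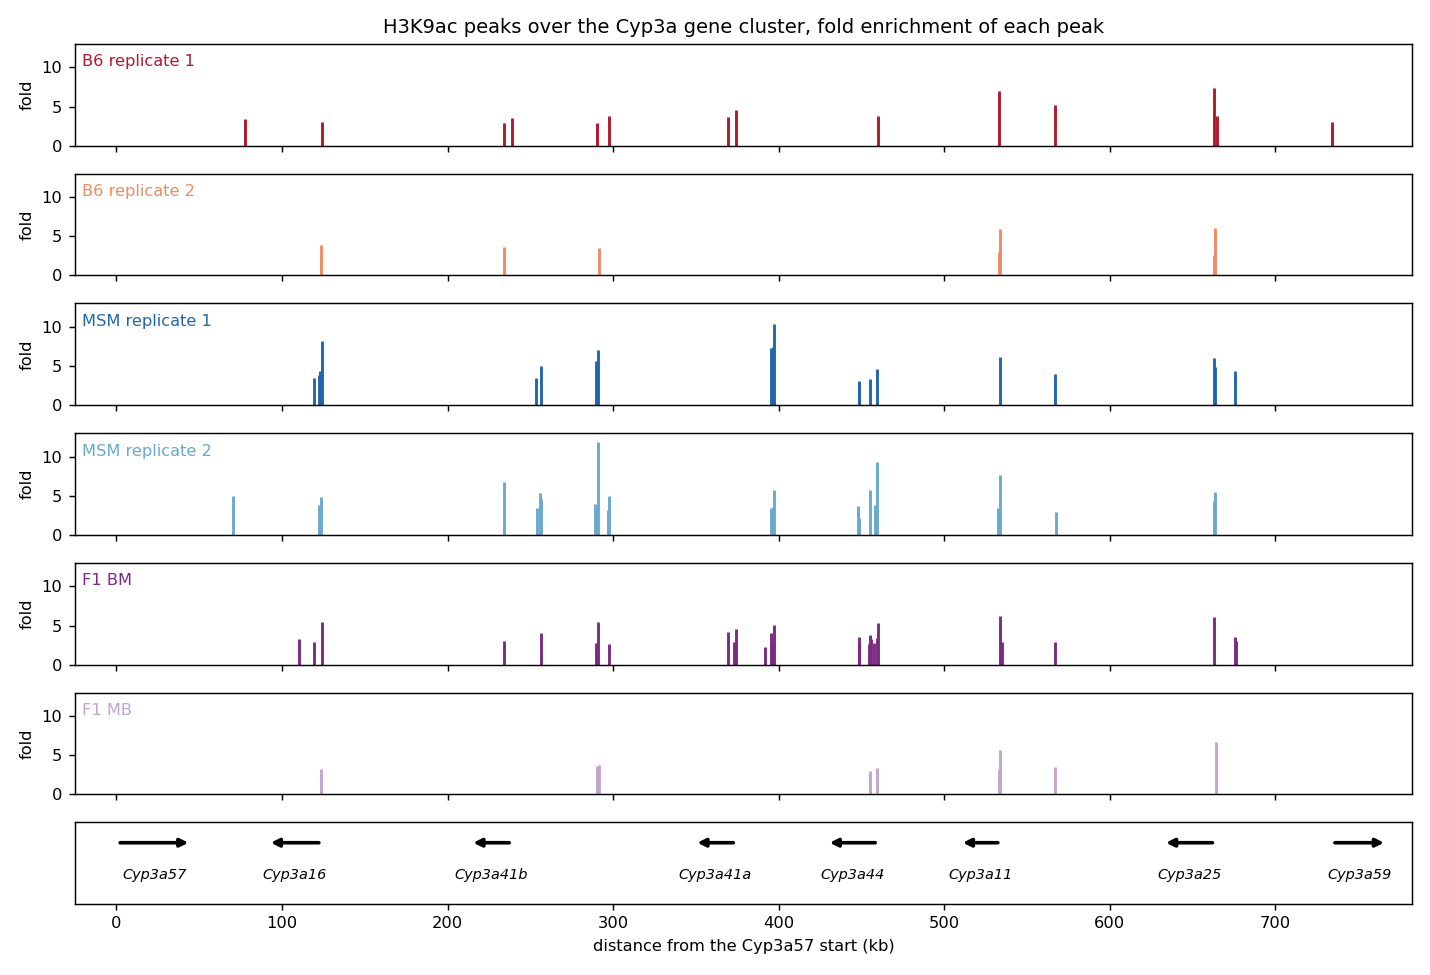
Each of the upper 6 rows is 1 library, with a vertical line for each peak of the 773 kb cluster at its distance in kb from the Cyp3a57 start and its fold enrichment as height. Arrows in the lowest row show the 8 genes of the cluster and their direction. The tallest lines outside the genes, with folds of 10.3 and 11.9, stand in the MSM rows.

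The summed length under peaks over the 9 windows was 9187, 3458, 7353, 8182, 11429 and 3425 bp. The B6 mean, 6322.5 ± 4051 bp, and the MSM mean, 7767.5 ± 586 bp (SD, n = 2 each), differed by less than the spread between the B6 mice (exact permutation p = 1). Without B6 replicate 2 the difference was −1419.5 bp (MSM minus B6). As a percent of the total length under peaks of each list, it was 0.0573, 0.0551, 0.0761, 0.0845, 0.0932 and 0.0459%. Set against the size of the list, the B6 mice were nearly equal and both MSM mice were higher, 0.0803 ± 0.00593% against 0.0562 ± 0.00158% (exact permutation p = 0.333). The F1 mice lay at either side of the parents, with F1 BM the highest and F1 MB the lowest.

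The genes that control and serve the family had peaks in nearly every library. Of 11 regulators, 10 had a peak in the window in all 6 libraries and 8 had one at the start in all 6, against 28.5% and 23.6% of all genes. Nr1i2, which encodes the xenobiotic receptor PXR, had a highest fold of 11.6, 8.87, 12.0, 16.3, 11.8 and 14.2. Nr1i3, which encodes CAR, had 15.7, 7.86, 15.2, 11.8, 8.81 and 12.4. Hnf4a, a hepatocyte factor, had no peak within 1 kb of the annotated start but 8, 6, 9, 8, 11 and 8 peaks in its window. Onecut1, a liver transcription factor, was the 1 regulator of 11 whose covered length did not overlap between strains, with 5266, 1409, 5393, 6757, 3047 and 872 bp. Among all genes with a parental peak, 4.97% were higher in both MSM mice and 11.6% in both B6 mice, so 1 of 11 is near that background. Of 6 electron transfer and heme genes, 6 had a window peak and 5 a start peak in all 6 libraries, against the same 28.5% and 23.6%. Por, the P450 reductase, had its peaks away from the annotated start, with a highest fold of 17.9, 7.70, 12.7, 17.3, 10.4 and 13.8. Alas1, the first enzyme of heme synthesis, was covered further in both MSM mice (6570 and 5503 bp) than in both B6 mice (4504 and 1532 bp). It was the 1 gene of these 6 with that order, against 4.97% of all genes with a parental peak.

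Several Cyp3a genes are used differently by male and female livers, and other genes of that kind were read beside them. The 4 Y-linked genes Ddx3y, Eif2s3y, Kdm5d and Uty had no peak in any library, and Xist, the RNA of the inactive X chromosome, had a start peak in all 6, with a highest fold of 8.74, 4.20, 7.73, 10.015, 6.72 and 5.98. Among genes of the female liver, Cyp2b9, Cyp2b13 and Cyp17a1 were covered further in both B6 mice and Cyp2a4 in both MSM mice (11.6% and 4.97% of all genes with a parental peak). Cyp2b9, a steroid hydroxylase, was covered over 4891 and 2816 bp in B6, 0 bp in both MSM mice, 3245 bp in F1 BM and 0 bp in F1 MB. Cyp2a4, another steroid hydroxylase, was covered over 1403 and 0 bp in B6, 3507 and 2971 bp in MSM, 2830 bp in F1 BM and 1877 bp in F1 MB. Of 6 genes of the male liver, 2 (Cyp7b1 and Cyp2d9) were covered further in both MSM mice, against the same 4.97%. The genes of the female liver thus did not share 1 direction between the strains, and the part of sex or hormone state in the values of Cyp3a41a, Cyp3a41b and Cyp3a44 was not tested.

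Markers of other cells of the liver were read in the same way. Of 4 endothelial markers, 3, 0, 2, 4, 4 and 0 had a start peak. The share of all protein-coding genes with one was 44.2, 27.9, 35.5, 36.2, 35.3 and 31.7%. B6 replicate 2 and F1 MB, which had none of the 4, were the shortest lists. The stellate markers had a start peak only for Dcn in F1 BM, the cholangiocyte markers only for Sox9 in B6 replicate 1, and the intestinal markers only for Fabp2 in B6 replicate 1. B6 replicate 1 was also the library that held the single peak of Cyp3a59 and the start peak of Cyp3a41b, and the part of list size in these was not tested.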

How the data were processed

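H3K9ac was measured in 6 libraries, and the 6 input libraries of the series were not used. The authors sequenced 50 bp paired reads, trimmed them with Trim Galore and, per the paper's methods, mapped them with Bowtie 2 to mm10 (the submitters' processing notes name HISAT2, SAMtools and MACS2). The threshold of the peak calls and the use of input are not given in the sources used here. The deposited lists give for each peak a fold enrichment (a linear ratio), the −log10 p, the −log10 q and a score derived from it by the authors' peak caller. The lists hold no read counts, so depth was not used, and replicates were called separately.

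Peaks were compared by position with Python 3.11.15 and numpy 2.4.6, and figures were drawn with matplotlib 3.10.9. A start peak overlapped the 1 kb on either side of the GENCODE start by at least 1 bp. Overlapping peaks of the 6 lists were merged into regions. Strains were compared by a two-sided exact permutation test. The rule was to name every Cyp3a gene, and genes of the other lists where their presence at the start differed between libraries. Every Cyp3a gene is named, but only some of the genes of the other lists that met the rule are. The other genes named were chosen after their values were seen. The genes and lists were chosen with earlier results of these data known. The alternatives were lists limited to the same number of peaks, to the same covered length or to −log10 q of at least 5, summits in place of whole peaks, other widths around the start, a replicate block and leaving out each replicate. The calculation was tested on simulated lists with planted differences. A result of 1 of the comparison lists is not reported here.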

Additional observations from a re-analysis of the deposited data

How the results depend on the processing

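The 4 summary results were recomputed under 42 alternatives, of which 34 kept the direction, 7 reversed and 1 gave a difference of 0. The difference in the number of Cyp3a genes with a start peak (MSM minus B6, −2) became 0.5 with lists of equal peak number, 1.5 with the same covered length and 1 with −log10 q of at least 5. The difference in genes with a window peak (−2) became 0.5, 1.5 and 1 in these settings. Leaving out each replicate, the start count ranged from −4 to 0 (0 without B6 replicate 1), the window count from −3.5 to −0.5, the summed covered length from −1419.5 (without B6 replicate 2) to 4309.5 bp, and the share of covered length from 0.0199 to 0.0283 percentage points. That share was higher in MSM in every alternative run (0.0276 with the same number of peaks, 0.0432 with the same covered length, 0.0383 with −log10 q of at least 5).

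Of 107 alternatives for single genes, 85 kept the direction, 6 reversed and 16 gave 0, among them all those of Cyp3a57, which had no peak. Cyp3a41b in covered length became 7.5 bp with the same number of peaks, the same covered length and −log10 q of at least 5. With each replicate left out, Cyp3a11 ranged from −264 (without B6 replicate 2) to 756 bp in covered length and from −0.344 (without MSM replicate 2) to 1.16 in fold, with −0.124 without B6 replicate 2. With the same covered length in every list, Cyp3a11 was higher in both MSM mice, by 1184.5 bp. Cyp3a16 and Cyp3a44 were higher in both MSM mice in every list setting. Cyp3a13 and Cyp3a25 were higher in both B6 mice with the same number of peaks, Cyp3a25 alone of the 2 with the same covered length, and 0 of the 2 with −log10 q of at least 5. The covered length between the windows was an unplanned measure, and its alternatives were chosen after seeing the data. It stayed higher in both MSM mice (3480 and 2209 against 0 and 225 bp with the same covered length). The cause of these changes was not tested.

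The replicate numbers share no litter or day in the labels, and deviations of same-numbered libraries correlated at r = 0.0832 over 11446 genes. With a replicate block, no direction changed and the exact sign-flip permutation p was 0.5 for the share and 1 for the other 3 summary results. The lists hold no depth, and 2 mice per strain limit what can be told.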
